A study of Mus musculus with 9 samples.

Results

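The genes described here encode the machinery of oxidative phosphorylation in mouse regulatory T (Treg) cells. They were taken from the deposited expression table by symbol: every gene beginning with Nduf, Uqcr, Atp5, Cox4 to Cox8 or mt-, together with Sdha, Sdhb, Sdhc and Sdhd, and without symbols that contain -ps. This gave 108 of 13698 genes, of which 86 are encoded in the nucleus and 22 in the mitochondrial genome. The nuclear genes comprised 36 subunits of complex I, 4 of complex II, 8 of complex III, 13 of complex IV (counting Ndufa4) and 15 of ATP synthase. The symbols also caught 7 assembly factors of complex I and 3 further genes, Cox7a2l, Atp5s and Atp5sl. The mitochondrial genes comprised 10 protein genes, 2 ribosomal RNAs and 10 transfer RNAs. The mt-Nd3, mt-Nd4l and mt-Atp8 genes and the isoform genes Cox4i2, Cox6a2, Cox8b, Cox8c, Cox7b2 and Ndufa4l2 were not analysed here as genes of their own.

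The study sequenced RNA of cells sorted from spleen and lymph node, with 3 libraries for each of 3 groups and 9 in all, from female mice of a mixed strain background labelled C56Bl6/129 mix. The deficient cells were sorted as YFP+MHCII- from mice of genotype LRFffThpokff Foxp3 Cre-YFP/X, in which the genes of the transcription factors Thpok (Zbtb7b) and LRF (Zbtb7a) are flanked by recombination sites and Cre is made with YFP from a Foxp3 allele. As animal controls, YFP-MHCII-CD25hi cells were taken from the same 3 mice; they use the other Foxp3 allele and keep both factors. The genetic controls were YFP+MHCII- cells of 3 other mice of genotype WT Foxp3 Cre-YFP/X. The deficient and genetic control cells therefore both use the Foxp3 Cre-YFP allele and share the sort. The animal controls come from mice that carry this allele too, but differ from both in the allele used and in the sort. Cre is driven by Foxp3, so deletion is limited to cells that have expressed this gene, and Foxp3 lies on the X chromosome, so each cell of a heterozygous female uses one allele. The labels used here state no ages. The question put by the design is which transcripts differ between Treg cells with and without Thpok and LRF, with a control for the animal and a control for the Foxp3 allele.

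Oxidative phosphorylation is carried out in the inner mitochondrial membrane. Complexes I and II pass electrons to ubiquinone, complexes III and IV carry them on to oxygen through cytochrome c, and ATP synthase uses the proton gradient built by complexes I, III and IV to make ATP. Most subunits are encoded in the nucleus and imported, while a small core of complexes I, III, IV and ATP synthase is transcribed inside the organelle from both strands of its circular genome. Treg cells are known to rely on respiration, and mitochondrial complex III has been linked to their suppressive function.

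The mitochondrial genes have near-identical copies in the nuclear genome, and stretches of 3 pairs are shown because these copies limit what a read can report. In GENCODE M21 (build GRCm38, the mm10 assembly that the submitters' processing notes name), 9 pseudogenes in the expression table shared a run of at least 30 bases with a mitochondrial protein gene. Gm28661, on chromosome 1, matched mt-Co2 at 681 of 681 aligned bases. Gm29216, also on chromosome 1, matched mt-Co1 at 482 of 483 aligned bases, with the single substitution A1066T. Gm13340, on chromosome 2, matched mt-Co1 at 1508 of 1545 bases. Capitals mark the bases that differ within a pair, and positions are counted from 1 at the first base of the mitochondrial gene, whose base is written first. The first pair has no differing base, the second shows A1066T, and the last shows C54A and A60G of the 37 substitutions in Gm13340.
mt-Co2, chrM:7013-7072, plus strand: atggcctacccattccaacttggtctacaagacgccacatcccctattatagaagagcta
Gm28661, chr1:24615506-24615565, minus strand: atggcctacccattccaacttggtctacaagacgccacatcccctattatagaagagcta
mt-Co1, chrM:6390-6449, plus strand: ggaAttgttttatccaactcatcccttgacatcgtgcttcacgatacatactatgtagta
Gm29216, chr1:24616129-24616188, minus strand: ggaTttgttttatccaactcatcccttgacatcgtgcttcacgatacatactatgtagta
mt-Co1, chrM:5351-5410, plus strand: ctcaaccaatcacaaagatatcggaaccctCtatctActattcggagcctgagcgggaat
Gm13340, chr2:22589565-22589624, minus strand: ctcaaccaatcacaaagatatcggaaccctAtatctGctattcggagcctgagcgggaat

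Promoter sequence, which the choice of genes did not use, was searched for short cores of transcription factor sites. The RefSeq promoter table (GRCm38.p6), which covers 250 bases before to 50 bases after each gene's start, held 71 of the 86 nuclear members. The core AAGATGGC of the site of YY1 was found in 9 of them and the core GCGCATGC of the site of NRF1, a factor known for respiratory genes, in 12. The 30-base windows around the 9 YY1 matches and around NRF1 matches of 3 members described below (Cox6a1, Sdhb and Uqcrc1) are shown because they mark which members carry these letters, with the core, or its reverse complement, in capitals.
Atp5j, chr16:84835046-84835075, minus strand: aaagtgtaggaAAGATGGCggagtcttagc
Atp5j2, chr5:145191500-145191529, minus strand: accaggacttcAAGATGGCgtcactcggtg
Ndufa3, chr7:3617384-3617413, plus strand: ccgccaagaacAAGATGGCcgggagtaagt
Ndufa9, chr6:126849097-126849126, minus strand: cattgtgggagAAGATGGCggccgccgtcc
Ndufb8, chr19:44555393-44555422, minus strand: tgaaccgcggagaaggtgAAGATGGCtgcc
Ndufc1, chr3:51408915-51408944, minus strand: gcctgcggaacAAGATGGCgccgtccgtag
Ndufs4, chr13:114388045-114388074, minus strand: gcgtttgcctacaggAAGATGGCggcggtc
Ndufs6, chr13:73328433-73328462, minus strand: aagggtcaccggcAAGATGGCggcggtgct
Ndufs7, chr10:80249462-80249491, plus strand: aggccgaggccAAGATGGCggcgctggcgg
Cox6a1, NRF1 core, chr5:115349100-115349129, minus strand: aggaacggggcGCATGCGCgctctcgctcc
Sdhb, NRF1 core, chr4:140961206-140961235, plus strand: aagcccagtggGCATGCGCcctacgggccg
Uqcrc1, NRF1 core, chr9:108936667-108936696, plus strand: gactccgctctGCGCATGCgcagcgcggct
Most members lacked each core. The NRF1 core was present in 12 of the 71 promoters (16.9%), against 6.30% of the 8988 promoters of genes in the expression table and 3.05% of all 27025 promoters. The YY1 core was present in 9 (12.7%), against 5.51% and 3.19%. The ETS core CCGGAAG was present in 17 (23.9%), against 21.4% of those in the table, and TATAAA in 5 (7.04%), against 8.18%. No enrichment was tested. Both strands were searched for each, and no matches of different motifs overlapped in a member's promoter. These are matches of letters and say nothing of binding in these cells.

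Values are the deposited log2 CPM (counts scaled to a common library total, on a log2 scale), and levels are given below as CPM on the linear scale, as mean ± SD with n = 3 libraries. Linear values summed to between 999252 and 999256 in every library, so the sequencing depth is unknown and no counting interval can be given. Zbtb7b stood at 0.260 ± 0.110 CPM in deficient cells, 115 ± 30.3 in genetic controls and 93.7 ± 15.0 in animal controls. Zbtb7a stood at 89.5 ± 12.6, 90.3 ± 21.0 and 112 ± 19.3 CPM, and the table does not show which exons its reads came from. The labelled cell type is T regulatory cells. Cd3d, Cd3e and Cd3g, of the T cell receptor complex, were at 700 CPM or more in every library. Cd4 was 329 to 381 CPM in deficient cells, 678 to 1026 in genetic controls and 820 to 988 in animal controls, and Il2ra, which encodes CD25, was 416 to 551, 584 to 788 and 738 to 800 CPM, so both were lowest in the deficient libraries. Foxp3, which defines Treg cells, stood at 32.2 ± 5.02 CPM in deficient cells and 33.3 ± 7.38 in genetic controls against 905 ± 132 in animal controls. The other listed Treg markers showed no such gap. Ctla4 was 44.0 to 65.8 CPM in deficient cells, 50.3 to 57.4 in genetic controls and 36.6 to 58.2 in animal controls. Ikzf2 was 261 to 351, 295 to 321 and 385 to 516 CPM. The summed level of the 4 B cell markers in the table, of 7 listed, was 13.8 to 28.5 CPM in genetic controls, 52.8 to 71.7 in deficient cells and 57.9 to 96.8 in animal controls. Cd79b carried most of it, at 12.6 to 22.5, 45.0 to 67.1 and 39.6 to 74.3 CPM in the same order. Cd79a was 1.13 to 10.4, 2.18 to 7.79 and 9.45 to 17.8 CPM, while Ebf1 was below 0.1 CPM in every deficient and genetic control library. Of 11 myeloid markers, 5 were in the table and summed to 11.0 to 64.3 CPM in deficient cells, 1.08 to 6.94 in animal controls and 14.2 to 353 in genetic controls, where mouse 8619 was highest. Of 10 erythroid and platelet markers, 6 were in the table and summed to at most 76.1 CPM, again in genetic control 8619. Of 5 NK cell markers, 3 were in the table and summed to at most 13.4 CPM. Of 7 muscle and stromal markers, Tnnt3 and Pecam1 were in the table, and Pecam1 was 64.3 to 148 CPM in deficient cells, 226 to 243 in genetic and 167 to 220 in animal controls. The part of these cells in the results below was not tested. Each library is a bulk sample, so fewer cells of a type and less RNA per cell cannot be told apart.

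A few mitochondrial genes carried more RNA than all 86 nuclear genes together. Together the 108 members took between 4.28% and 5.25% of a library's total. The nuclear members summed to 13528 ± 587 CPM in deficient cells, 12752 ± 749 in genetic controls and 13107 ± 415 in animal controls. The mitochondrial members summed to 35685 ± 210, 35348 ± 4134 and 37839 ± 1799 CPM. Most of this sum came from mt-Co1, mt-Cytb and mt-Rnr2, whose values the normalization ties to the top ranks of the table (described below), so the spread of the sum is partly set by it. The ranges of the libraries overlapped between every pair of groups for the nuclear sum, and for the mitochondrial sum all but the deficient cells and animal controls, which lay at 35457 to 35869 and 35914 to 39477 CPM.

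Levels can be compared between genes only per transcript length, here CPM per kb averaged over all 9 libraries. The nuclear subunits of the complexes lay in the same range, with medians of 112 CPM per kb for complex I, 127 for complex II, 197 for complex III, 141 for complex IV and 236 for ATP synthase. Cox6a1, the general isoform of complex IV subunit 6a, was the highest nuclear subunit at 605 CPM per kb. Cox4i1, the general isoform of subunit 4 of the same complex, followed at 587, then Atp5b, the catalytic beta subunit of ATP synthase, at 516 and Uqcrh, the hinge protein of complex III, at 511. The complex I assembly factors, which build the enzyme but are no part of it, were lower, with a median of 11.5 CPM per kb. The mitochondrial protein genes read far above these: mt-Cytb, the cytochrome b of complex III, stood at 6916 CPM per kb, mt-Co1, the catalytic subunit of complex IV, at 6664, and mt-Nd1, a membrane subunit of complex I, at 3606. Their fellow genes mt-Co2, mt-Co3 and mt-Atp6 were listed at 3.23, 7.49 and 4.94 CPM per kb, and each has a copy in the nuclear genome (below). Values per kb depend on the transcript taken as the gene's length. Atp5g1, for instance, was the lowest ATP synthase gene at 24.0 CPM per kb with a length of 4660 bases.

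**Figure D1:**
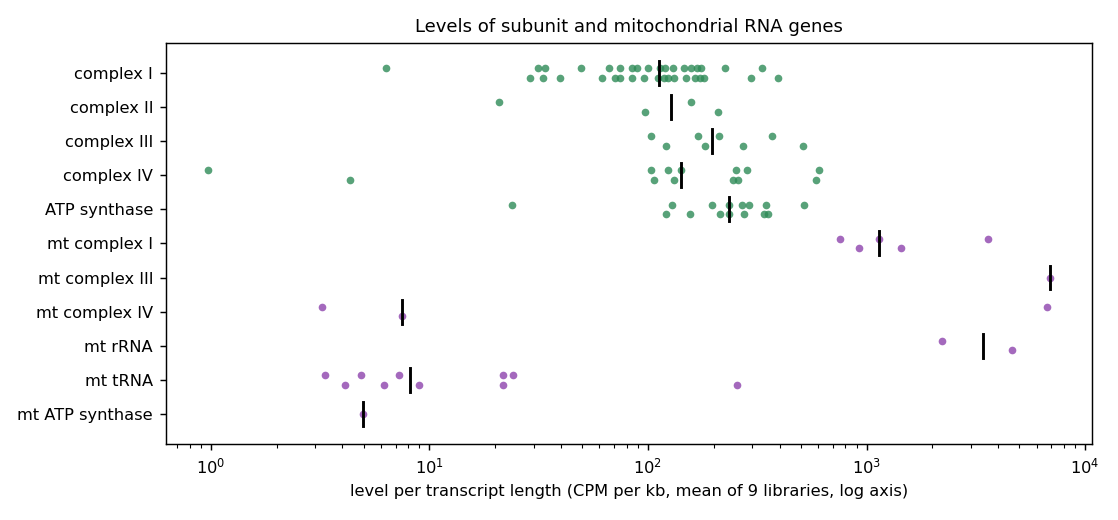
Level of each subunit and mitochondrial RNA gene per transcript length (CPM per kb, mean of 9 libraries, log axis), with nuclear genes in green, mitochondrial genes in purple and black bars at the class medians. Nuclear subunits of all complexes overlap in range, up to 605 CPM per kb for Cox6a1, and mt-Cytb and mt-Co1 stand at 6916 and 6664.

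Between deficient cells and genetic controls no member was called. Of 108 members, 0 passed an FDR of 0.05 in limma, against 0.869% of all 13698 genes, and 6 members had an unadjusted p under 0.05 (5.56% against 10.6% of all genes). The groups did not overlap for 14 members that were higher in deficient cells (13%, against 8.44% of all genes) and for 2 that were lower (1.85%, against 7.28%). All of these were nuclear members. The median log2 difference was 0.08 over the nuclear members and 0.07 over the mitochondrial members, beside 0.04 over all genes. Leaving out 1 library at a time moved the nuclear median to between 0.03 (without genetic control 124) and 0.17 (without genetic control 8800) and the mitochondrial median to between -0.22 and 0.26 (without the same libraries). The mitochondrial median was -0.02 over members with a mean of 10 CPM or more. The standard error of a member's log2 difference had a median of 0.23. With 3 libraries a group, the p-values rest on the spread between mice within groups, estimated over all 9 libraries. These include the animal controls, which share mice with the deficient cells, and the fit held no mouse term.

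In the comparison of deficient cells with animal controls from the same mice, a single member was called. Cox6b2 was higher in deficient cells, so 1 of 108 members (0.926%) passed, beside 0.891% of all genes in either direction and 0.307% higher. In limma 11 members had an unadjusted p under 0.05 (10.2%, against 11.9% of all genes). The groups did not overlap for 9 members that were higher (8.33%, against 7.85%) and 10 that were lower (9.26%, against 8.1%). Nuclear members had a median log2 difference of 0.0062 and mitochondrial members one of -0.18, beside 0.04 over all genes.

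Between genetic and animal controls, which both keep Thpok and LRF, no member was called. In limma 0 of 108 passed, against 0.0365% of all genes, and 8 had an unadjusted p under 0.05 (7.41%, against 6.62%). The groups did not overlap for 2 members that were higher in genetic controls (1.85%, against 4.88%) and 9 that were lower (8.33%, against 5.57%). The median log2 difference of genetic minus animal controls was -0.09 over the nuclear members and -0.26 over the mitochondrial members, beside -0.02 over all genes. Without genetic control 124 these medians were -0.03 and 0.07, a change of sign for the mitochondrial members, and without genetic control 8800 they were -0.14 and -0.40. The 3 comparisons share libraries pairwise, so their values are not independent of each other.

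**Figure D2:**
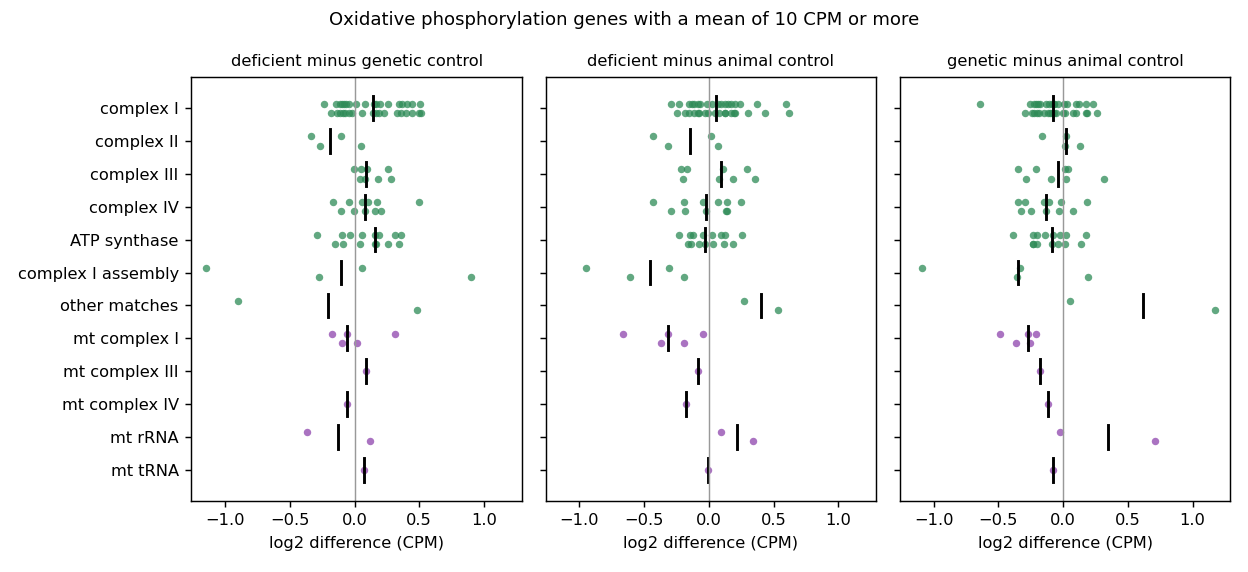
Log2 difference of each member by complex in the 3 comparisons, for the 90 members with a mean of 10 CPM or more (18 lower members are left out), with nuclear genes in green, mitochondrial genes in purple and black bars at the medians. Points lie on both sides of zero for most complexes, and the 5 mitochondrial complex I genes all lie below zero in the middle and right panels, where deficient cells and genetic controls are each set against animal controls.

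Complex I takes electrons from NADH. Its 36 nuclear subunits had a median log2 difference of 0.14 against genetic controls and 0.06 against animal controls, and none was called. Ndufv1, the NADH-binding subunit, was 180, 169 and 210 CPM in deficient cells, 154, 134 and 106 in genetic controls and 94.7, 124 and 158 in animal controls. Its deficient libraries lay above those of both controls, with log2 differences of 0.51 ± 0.23 and 0.59 ± 0.23 (limma, adjusted p = 0.480 and 0.355). Ndufa13, the complex I subunit with the highest CPM, averaged 239 ± 37.2, 209 ± 24.8 and 232 ± 37.0 CPM and overlapped between all groups. Ndufb2, an accessory subunit with the lowest level of the class, was 15.5 ± 3.05, 11.9 ± 3.12 and 18.4 ± 3.45 CPM. Among the assembly factors, whose standard errors were larger (median 0.71), Ndufaf3 was 9.26 ± 4.53 CPM in deficient cells, 21.3 ± 14.3 in genetic and 20.7 ± 14.2 in animal controls. Ndufaf4 ranged from 9.19 to 22.1 CPM in its group means. Its genetic controls were 18.9, 0.0046 and 8.68 CPM, with mouse 8619 at the lowest value the table lists. The size of its log2 differences from genetic controls depends on that value. No assembly factor had groups that did not overlap.

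Complex II, succinate dehydrogenase, links the citric acid cycle to the chain and is the single complex with no mitochondrially encoded subunit. Its 4 genes summed to 755 to 918 CPM in deficient libraries, 962 to 1128 in genetic controls and 941 to 1155 in animal controls, so the deficient libraries lay below both. None of the 4 was called. Sdha, the flavoprotein that oxidizes succinate (chr13:74322254-74350280), carried most of this sum, with 532, 568 and 446 CPM in deficient cells, 604, 632 and 709 in genetic controls and 609, 528 and 811 in animal controls. It did not overlap with genetic controls but did with animal controls, and its log2 differences were -0.34 ± 0.16 and -0.32 ± 0.16 (limma, adjusted p = 0.501 and 0.479). Sdhb, the iron-sulfur subunit, was 174, 155 and 127 CPM in deficient cells, 165, 186 and 195 in genetic controls and 190, 257 and 172 in animal controls, and overlapped with both. The median log2 difference of the 4 genes was -0.19 against genetic and -0.15 against animal controls.

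Complex III passes electrons from ubiquinol to cytochrome c. Its 8 nuclear subunits had median log2 differences of 0.09 from either control, and none was called. Uqcrc1, a core subunit and the one with the highest CPM, was 627 ± 15.5 CPM in deficient cells, 605 ± 31.7 in genetic controls and 596 ± 29.7 in animal controls. Uqcrc2, the other core subunit, was 251 ± 39.8, 243 ± 19.7 and 198 ± 46.7 CPM (0.36 ± 0.19 on the log2 scale against animal controls, limma, adjusted p = 0.516). Uqcr10, a small accessory subunit, was 88.9, 94.4 and 81.2 CPM in deficient cells and 66.7, 72.3 and 78.5 in genetic controls, with no overlap, and 69.4, 77.7 and 86.0 in animal controls, which overlapped with both. The difference from genetic controls was 0.28 ± 0.21 (limma, adjusted p = 0.701).

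Complex IV, cytochrome c oxidase, has subunits with isoforms that are made in particular tissues. Cox6b2, the testis isoform of subunit 6b (chr7:4751792-4753094), was 3.95, 4.197 and 6.56 CPM in deficient cells, 0.36, 0.41 and 6.05 in genetic controls and 0.0046, 0.0046 and 0.0079 in animal controls. The animal controls thus sat at or near the lowest value the table lists, and 2 genetic control libraries stood low while mouse 8800 stood with the deficient cells. It was higher in deficient cells than in animal controls (limma, adjusted p = 0.0280), and the size of its log2 difference depends on that lowest value. The adjusted p was 0.690 against genetic controls. Deficient and animal control cells came from the same mice, and with the mouse as a fixed block the adjusted p was 0.284. Leaving out any single deficient or animal control library gave adjusted p-values between 0.0657 and 0.103, and adding 1 CPM before taking logs gave 0.134. Cox6b1, the general isoform, was far more abundant and averaged 163 ± 24.5, 163 ± 24.2 and 198 ± 13.9 CPM. Per length, Cox6b2 read 4.33 and Cox6b1 283 CPM per kb.

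The other complex IV genes were not called. Cox7b, an accessory subunit, was 143, 103 and 117 CPM in deficient cells, 70.0, 95.6 and 92.0 in genetic controls and 105, 93.2 and 106 in animal controls. It did not overlap with genetic controls (0.50 ± 0.22 on the log2 scale, limma, adjusted p = 0.465) and did with animal controls. Cox4i1 was 448 ± 37.8, 419 ± 62.8 and 462 ± 34.6 CPM, Cox6a1 360 ± 16.1, 347 ± 50.6 and 328 ± 27.8, and Cox8a, the general isoform of subunit 8, 150 ± 7.40, 131 ± 21.1 and 143 ± 17.2. All of these overlapped between groups. Cox7a1, the heart and muscle isoform of subunit 7a, was at the lowest listed value in all 3 deficient libraries and reached 2.76 CPM in a single animal control, while Cox7a2, its general counterpart, was 87.2 ± 16.9, 77.0 ± 11.5 and 78.7 ± 11.5 CPM. Ndufa4, once assigned to complex I and now counted with complex IV, was 159, 150 and 150 CPM in deficient cells, 135, 133 and 142 in genetic controls and 168, 197 and 160 in animal controls. Its 3 groups did not overlap, with deficient cells between the controls, and its largest log2 difference was -0.35 ± 0.16 for genetic minus animal controls (limma, adjusted p = 0.751).

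Cox7a2l is related to subunit 7a but acts in joining complexes III and IV into supercomplexes. It was 423, 439 and 385.2 CPM in deficient cells, 260, 337 and 297 in genetic controls and 287, 285 and 287 in animal controls (chr17:83501918-83517330). Deficient libraries lay above both kinds of control. The log2 differences were 0.49 ± 0.13 and 0.54 ± 0.13, and neither passed the adjustment over all genes (limma, adjusted p = 0.157 and 0.110). Atp5s and Atp5sl are named for an ATP synthase coupling factor and were not counted as subunits here. Atp5s was 0.025, 0.0046 and 0.0046 CPM in deficient cells, 1.12, 15.9 and 1.28 in genetic controls and 2.92, 0.66 and 4.79 in animal controls. The deficient libraries were at or near the lowest listed value and below all controls (limma, adjusted p = 0.0699 and 0.0803). Atp5sl was 15.1 ± 10.01, 25.6 ± 9.51 and 12.4 ± 8.42 CPM and overlapped throughout.

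ATP synthase has 15 nuclear genes here, with median log2 differences of 0.16 against genetic controls and -0.03 against animal controls and no calls. The 15 summed to 4316 to 4719 CPM in deficient libraries, 4192 to 4299 in genetic controls and 4259 to 4384 in animal controls. The deficient sums lay above genetic controls and overlapped with animal controls. The sums of the nuclear subunits of complexes I, III and IV overlapped between all groups. Atp5b was 1072, 1060 and 1072 CPM in deficient cells, 1001, 862 and 1009 in genetic controls and 917, 961 and 939 in animal controls. The deficient libraries lay above all 6 controls, by 0.16 ± 0.08 and 0.19 ± 0.08 on the log2 scale (limma, adjusted p = 0.526 and 0.406). Atp5d, the delta subunit of the central stalk, was 303, 379 and 367 CPM in deficient cells against 289, 268 and 260 in genetic controls, with no overlap (0.36 ± 0.14, limma, adjusted p = 0.400). Its animal controls, at 327, 353 and 284 CPM, overlapped with both groups. Atp5c1, the gamma subunit that turns within the enzyme, was 433 ± 12.1, 380 ± 19.4 and 446 ± 22.6 CPM, lowest in genetic controls. The membrane ring subunit c is encoded by 3 genes with the same mature protein. Atp5g1 was 113 ± 29.7, 110 ± 33.8 and 113 ± 9.05 CPM, Atp5g2 112 ± 17.1, 115 ± 17.9 and 118 ± 15.0, and Atp5g3 185 ± 29.0, 150 ± 35.4 and 170 ± 19.3. Their sum was 410 ± 69.7 CPM in deficient cells, 375 ± 85.6 in genetic controls and 401 ± 33.0 in animal controls, with overlap between all groups.

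**Figure D3:**
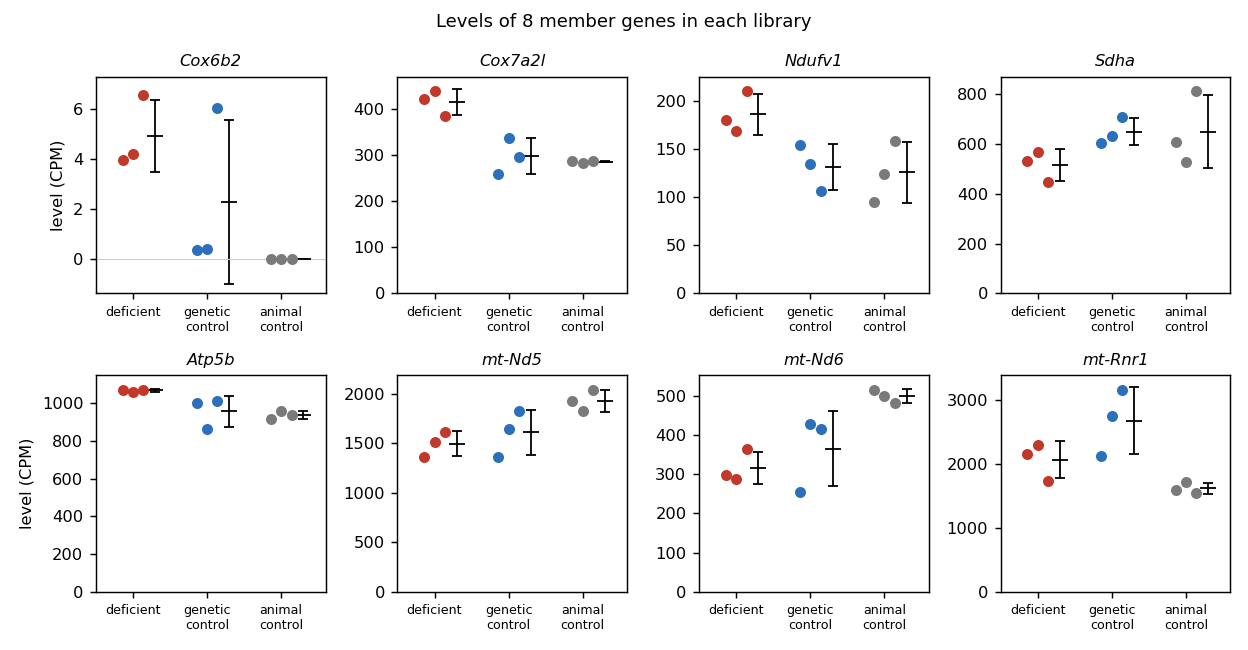
CPM in each library (points) for 8 members by group, with the mean and SD of 3 libraries beside each group and axes that include 0. Cox6b2 is near 0 in all animal controls and high in a single genetic control, Cox7a2l and Atp5b are highest in the deficient libraries, and mt-Nd5 and mt-Nd6 are highest in the animal controls.

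The mitochondrial complex I genes read lower in both deficient cells and genetic controls than in animal controls, without passing the test. All 5 had negative log2 differences in either comparison, with medians of -0.31 and -0.27, and 3 in each had an unadjusted p under 0.05 in limma. Of all 13698 genes, 6506 and 7004 had negative differences in these comparisons. An unadjusted p under 0.05 in limma with a negative difference was found for 869 and 436 of all genes. Without genetic control 124, genetic minus animal controls was -0.17 for mt-Nd1, -0.16 for mt-Nd5 and -0.25 for mt-Nd6, against -0.36, -0.27 and -0.49 with it. The 5 of them summed to 7989 to 8814 CPM in deficient libraries, 9269 to 9829 in animal controls and 6258 to 9194 in genetic controls. Deficient and animal control libraries did not overlap, and genetic controls spanned the deficient range. The mt-Nd5 gene (chrM:11742-13565), which encodes a proton-pumping subunit, was 1365, 1514 and 1610 CPM in deficient cells, 1365, 1643 and 1822 in genetic controls and 1930, 1822 and 2042 in animal controls. Its log2 difference from animal controls was -0.37 ± 0.11 (limma, adjusted p = 0.194). The mt-Nd6 gene (chrM:13552-14070), the one protein gene on the other strand, was 297, 288 and 363 CPM in deficient cells, 254, 428 and 414 in genetic controls and 515, 500 and 481 in animal controls. The difference of deficient cells from animal controls was -0.67 ± 0.20 (limma, adjusted p = 0.198), and it passed the test at an adjusted p of 0.049998 when genetic control 124 was left out of the shared estimate of spread. The mt-Nd4 gene was 1438 ± 96.6, 1515 ± 308 and 1784 ± 59.0 CPM and the mt-Nd2 gene 1429 ± 53.7, 1425 ± 240 and 1630 ± 48.6. Both encode proton-pumping subunits, and both separated deficient cells from animal controls without overlap. The mt-Nd1 gene was 3626 ± 153, 2969 ± 657 and 3758 ± 319 CPM.

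The most abundant mitochondrial genes are pinned by the normalization. All libraries were given the same distribution of values, so a gene at the top of the table can take only the values of the top ranks. The mt-Co1 gene ranked first or second in every library and took 2 distinct values, 9736 CPM in all 3 deficient libraries and 2 genetic controls and 10996 in all 3 animal controls and genetic control 8800. Its SD of 0 in deficient cells and in animal controls is a property of these ties, and its log2 difference of -0.18 between these groups (limma, adjusted p = 0.134, or 0.0197 without genetic control 8800) is the step between the top ranks. The mt-Cytb gene took 3 distinct values at ranks 2 to 4, with means of 7895, 7412 and 8428 CPM. The mt-Rnr2 gene, the large ribosomal RNA, took 4 values at ranks 3 to 6.

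The small ribosomal RNA mt-Rnr1 (chrM:70-1024) ordered the groups differently from the protein genes. It was 2158, 2290 and 1733 CPM in deficient cells, 2116, 2749 and 3156 in genetic controls and 1594, 1707 and 1547 in animal controls. Every deficient and genetic control library lay above every animal control, which differs from them in both the Foxp3 allele used and the sort. Genetic minus animal controls was 0.71 ± 0.14 on the log2 scale, the lowest p of any member in that comparison (limma, adjusted p = 0.217). Deficient cells lay between, at -0.37 ± 0.14 from genetic and 0.34 ± 0.14 from animal controls (limma, adjusted p = 0.400 and 0.390). The mt-Rnr2 gene was 7653 ± 418, 7187 ± 1644 and 7159 ± 437 CPM and overlapped. The 10 transfer RNA genes were low, from 0.23 CPM for mt-Ti to 17.1 for mt-Tp as means of all libraries, and none separated the groups.

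The mt-Co2, mt-Co3 and mt-Atp6 genes were listed at lower means in every group than the nuclear copies identical to them. The mt-Co2 gene, the copper-binding subunit of complex IV, was listed at 2.15 ± 0.193, 2.13 ± 0.710 and 2.34 ± 0.649 CPM, whereas Gm28661, identical over its aligned length, stood at 320 ± 30.6, 337 ± 60.5 and 373 ± 17.9. For mt-Co3, another core subunit, the gene was at 5.41 ± 0.666, 6.09 ± 2.12 and 6.11 ± 0.533 CPM and its copy Gm28437 (783 of 783 bases) at 27.1 ± 3.16, 28.3 ± 8.15 and 30.3 ± 1.91. For mt-Atp6, the membrane subunit of ATP synthase that forms the proton channel, the gene was at 3.71 ± 1.10, 2.88 ± 1.01 and 3.51 ± 0.902 CPM and Gm10925 (678 of 678 bases) at 4.34 ± 0.670, 4.52 ± 1.67 and 5.02 ± 1.05. How reads that match several places were counted is stated nowhere in the labels or notes used here, so the levels of these 3 genes are uncertain. With the values of each copy added to its mitochondrial gene, mt-Co2 differed by -0.06 ± 0.15 from genetic and -0.22 ± 0.15 from animal controls (limma, adjusted p = 0.943 and 0.628), and the count of called members was unchanged in both comparisons. That fit held 110 members, because copies of mt-Nd3 and mt-Nd4l entered in place of those genes. Gm13340 differs from mt-Co1 at 37 bases and still stood at 252 ± 7.86, 298 ± 56.6 and 319 ± 10.1 CPM, in the same order of groups as mt-Co1 itself. Each pseudogene was assigned to the mitochondrial protein gene with which it shared the most 30-base runs. None in the table was assigned to mt-Nd1, mt-Nd2, mt-Nd5, mt-Nd6 or mt-Cytb, and lesser matches to these genes were not recorded.

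**Figure D4:**
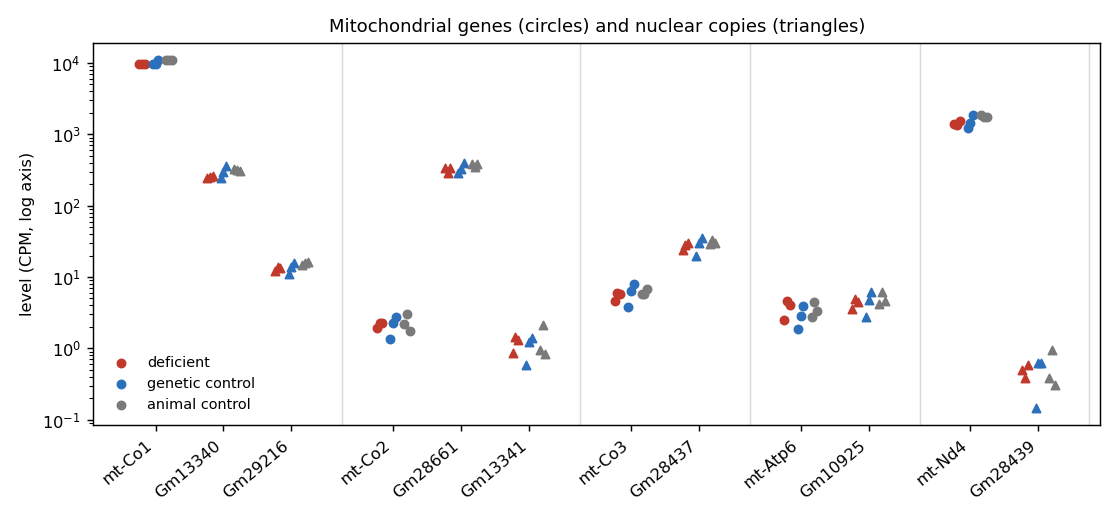
CPM on a log axis in each library for 5 mitochondrial genes (circles) and their nuclear copies in the table (triangles), coloured by group. The copy Gm28661 stands above mt-Co2 in all 9 libraries, while mt-Co1 and mt-Nd4 stand far above their copies.

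The nuclear and mitochondrial genes were also compared within each library. Each library's deviation was taken as the median, over genes, of its log2 value minus the mean of the 9 libraries, for the 76 nuclear subunits and for the 7 mitochondrial protein genes above 100 CPM. Nuclear minus mitochondrial deviation was 0.09, 0.08 and 0.15 in deficient cells, 0.15, 0.03 and -0.03 in genetic controls and -0.21, -0.13 and -0.03 in animal controls. The deficient libraries all lay above the animal controls, and the genetic controls overlapped with both. These are descriptions of 3 libraries a group, with no test. The 7 mitochondrial genes include mt-Co1 and mt-Cytb, whose values the normalization ties to the top ranks. In deficient 232614 the mitochondrial median was the mt-Cytb value itself (-0.089), and in genetic controls 8619 and 8800 it was that of mt-Co1. The mitochondrial deviation is thus partly set by the normalization. Genetic control 124 stood apart: its deviation was -0.19 for the nuclear and -0.33 for the mitochondrial genes, and it was the lowest of the 3 genetic controls for 54 of the 86 nuclear members. In the same library the genes that are not members deviated by -0.18 where transcripts were under 1 kb and by 0.13 at 4 kb and over. Other libraries differed by length in both directions. In mice 142114, 232614 and 432614 the deficient libraries deviated by -0.052, 0.0064 and 0.12 under 1 kb and by 0.11, 0.11 and 0.012 at 4 kb and over. Their animal controls deviated by -0.011, 0.12 and 0.066 under 1 kb and by 0.087, 0.012 and 0.0019 at 4 kb and over. These length classes hold genes whose mean reached 10 CPM, and the nuclear members that reach it have 48 transcripts under 1 kb, 24 of 1 to 2 kb, 7 of 2 to 4 kb and 1 of 4 kb or more. The part of transcript length in these results was not tested.

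**Figure D5:**
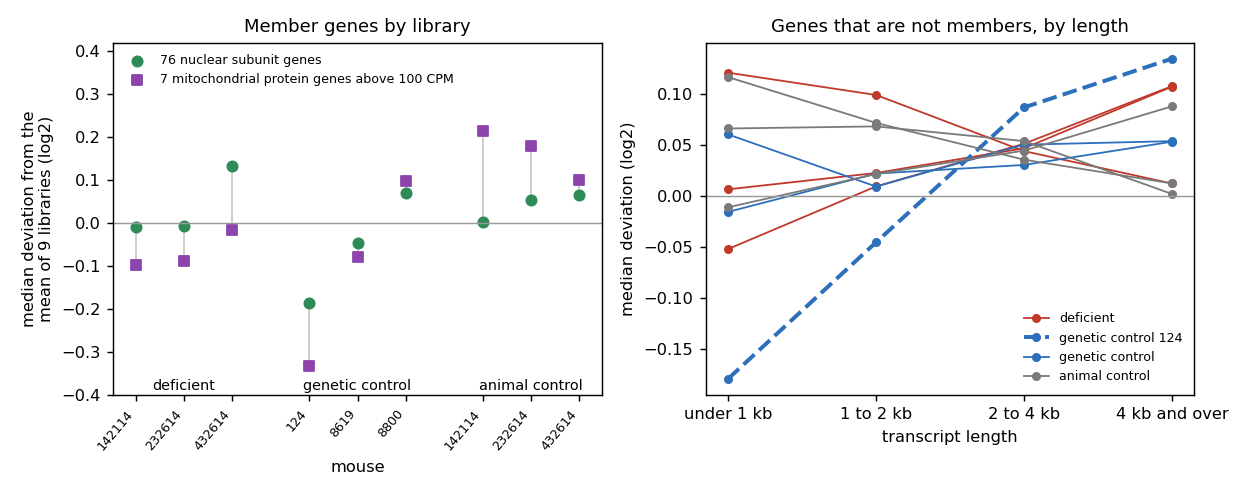
Left, median deviation of each library from the mean of 9 libraries (log2) for nuclear subunits (green) and mitochondrial protein genes (purple), by mouse and group. Right, the same deviation for genes that are not members, by transcript length, where genetic control 124 (dashed) runs from -0.18 under 1 kb to 0.13 at 4 kb and over.

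Companion genes of the pathway outside these symbols were counted by list. Of 20 electron carriers, ubiquinone genes and carriers of the inner membrane, 1 rose in deficient cells against each control and none fell. Of all 13698 genes, 46 were called higher and 73 lower against genetic controls, and 42 higher and 80 lower against animal controls. The gene called in this list was Slc25a4, the exchanger that exports ATP from the matrix in return for ADP, at 597 ± 55.1 CPM in deficient cells, 233 ± 46.1 in genetic controls and 253 ± 28.2 in animal controls. Its log2 differences were 1.37 ± 0.17 and 1.24 ± 0.17 (limma, adjusted p = 0.0055 and 0.0087), with no overlap. Against animal controls, which came from the same mice, the adjusted p was 0.160 with the mouse as a fixed block. Without the mean-variance trend the adjusted p-values were 0.0930 and 0.123, and against genetic controls it was 0.0562 with those 2 groups compared alone. In the same list Sqrdl, which feeds electrons from sulfide into the chain, was 16.2 ± 6.53, 25.2 ± 4.17 and 8.34 ± 3.94 CPM and was not called. None of 36 assembly factors outside the chosen symbols, 29 genes of mitochondrial transcription and RNA handling, 11 regulators of respiratory genes or 24 genes of the citric acid cycle and pyruvate entry was called in any comparison. The share called over all genes was 0.869% against genetic controls, 0.891% against animal controls and 0.0365% between the controls.

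Genes with a low unadjusted p in these lists were not called, and their values follow. Cox18, which inserts mt-Co2 protein into the membrane, was 42.1 ± 5.56 CPM in deficient cells, 10.4 ± 3.08 in genetic and 16.01 ± 7.39 in animal controls, with no overlap (limma, adjusted p = 0.120 and 0.262). Pdk1, the kinase that shuts pyruvate dehydrogenase, was 351 ± 95.0, 288 ± 40.1 and 169 ± 63.0 CPM, with an adjusted p of 0.141 (limma) against animal controls. Hcfc1, a cofactor of respiratory gene regulators, was 178 ± 9.40, 143 ± 15.9 and 107 ± 46.9 CPM, and Gabpb1, a subunit of the ETS factor NRF-2, was 91.0 ± 12.6, 85.1 ± 9.78 and 120 ± 21.4. Myc, a growth regulator, was 251 ± 29.8, 183 ± 51.4 and 202 ± 39.5 CPM. Fastk, a mitochondrial RNA-binding protein, was 73.1 ± 5.61, 41.9 ± 23.5 and 41.8 ± 8.16 CPM, while its relative Fastkd3 overlapped at 24.4 ± 13.05, 13.4 ± 10.7 and 4.07 ± 6.97. Lyrm7, a complex III assembly factor, was 2.97 ± 3.75 CPM in deficient cells and 3.97 ± 3.67 in genetic controls. It was at or near the lowest listed value in animal controls.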

How the data were processed

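Per the labels' protocols, column-purified RNA went into a template-switching kit for low input, followed by a transposase kit. The submitters' processing notes name bcl2fastq 1.8.4, STAR 2.4.0h, the mm10 build and limma. No source used here gives the counting tool, the annotation or the settings of the normalization. The values as deposited are log2 values already normalized by the authors. Equal lowest (-7.77) and highest (13.42) values in all 9 columns and linear sums between 999252 and 999256 led to their reading as quantile-normalized log2 CPM. Of 13702 rows, 4 exact duplicates were dropped. Depth is unknown, so precision rests on the 3 libraries a group.

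Values were used with no pseudocount and no filter. Group means over all 9 libraries were fitted in limma 3.58.1 (R 4.3.3, data.table, version 1.17.8) with the mean-variance trend, in 3 two-sided contrasts with Benjamini-Hochberg adjustment over 13698 genes at an FDR of 0.05. With 3 libraries a group no exact permutation test of a single gene was used. Lists are described by counts and medians. Genes were matched to GENCODE M21 by symbol (107 members) or synonym (1), and transcript length is the median over the best-supported coding transcripts. Figures were drawn with matplotlib 3.10.9.

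The members, the companion and marker lists and the rule for named genes were chosen with earlier results of these data known. That rule named called members, mitochondrial protein genes, the lowest p per class and comparison, the highest level per complex, isoform genes, members under 1 CPM (the low transfer RNAs are given as a range), and the called or lowest-p genes of each companion list. Nuclear copies and the genes of the promoter search were named as their searches found them. The NRF1 core was searched first in a longer form, and the shorter form reported was chosen with that result known. Some genes that the rule takes in are not reported here. Ndufa3, Cox7c and other genes that were counted only for lack of overlap are not described one by one. Deficient cells and animal controls share mouse numbers because the design took both from the same mice. After group means were removed, libraries of the same mouse correlated across 7550 genes at 0.0483, 0.0202 and 0.0170, against -0.0304 to 0.00803 for different mice. Over the 90 members among these genes the values were 0.0493, 0.0541 and 0.349 for the same mouse, against -0.201 to 0.139. The alternatives were the mouse as a random or fixed block, a pseudocount of 1 CPM, filters at 1 and 10 CPM, no trend, the groups of a comparison alone, centring, rescaling without mitochondrial genes, subunits only, and leaving out each library.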

Additional observations from a re-analysis of the deposited data

How the results depend on the processing

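Between deficient cells and animal controls, the number of members called was 1 and became 0 with a pseudocount of 1 CPM, with filters at 1 or 10 CPM (which remove Cox6b2, the called gene), with the 2 groups compared alone and with the mouse as a fixed block. Leaving out 1 library at a time gave between 0 and 2 called members, with mt-Nd6 joining without genetic control 124 and mt-Co1 without genetic control 8800. The median log2 difference of nuclear members against animal controls ran from -0.075 (without deficient 432614) to 0.055 (without deficient 142114), and that of mitochondrial members from -0.24 to 0.030 (without animal control 232614). The pairing by mouse was tried in both ways: the random block kept Cox6b2 at an adjusted p of 0.0229 and called 148 of all genes, while the fixed block called 0 of 13698 genes, with 13 members at an unadjusted p under 0.05 in limma. The fixed block also ended the call of Slc25a4 against animal controls, and the random block kept it. The block changed no other call among the members. The mt-Atp6 difference from animal controls, 0.06, turned to -0.12, -0.032 and -0.10 without deficient 232614, deficient 432614 or animal control 142114, reached 0.33 without deficient 142114, and was -0.085 with the copies summed. The mt-Cytb difference from animal controls ran from -0.17 to 0.022, the latter without animal control 142114, and the Sdhb difference of genetic from animal controls from -0.28 to 0.0070, the latter without animal control 232614. The cause was not tested for these. Of the alternative values for the main counts and medians, 159 stayed at the same count or within the spread between replicates and 15 moved. Medians could not change without the trend, with a mouse block or with the 2 groups compared alone. Leaving out a library of the third group could not change them either, so part of the 159 was fixed in advance. Among the 159, the mitochondrial medians of deficient against genetic and of genetic against animal controls changed sign to -0.22 and 0.073 without genetic control 124, and the first was -0.020 with a filter at 10 CPM or with subunits only. No value could be had for mitochondrial members after rescaling without them, or for Cox6b2 under the filters. Summing the nuclear copies, and using only mitochondrial genes with none assigned, were chosen after seeing the data, as were the alternatives for Slc25a4. Depth is unknown, and low genes such as the transfer RNAs had a median standard error of 1.70.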
